A study of Homo sapiens with 4 samples.

Results

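The 4 clone-named genes AC069287.3, AC092275.1, AC240565.1 and AL353593.2 had their lowest normalised read counts in 1 of 4 RNA libraries of H9 cells, the one in which reverse transcription followed tagmentation and no DNA was profiled. They are 4 of 33640 genes in the count tables, of which 11165 are clone-named and 1070 of these averaged at least 10 RPM (a gene's count divided by the library's total and scaled to a library of 1000000 counts) over the libraries. The genes were selected on the values described here. By these values they are the 4 clone-named genes past that level whose ratio of Post over Pre was highest in the pair with DNA profiling relative to the pair without it. Their values are therefore given as a description, with no test. All 4 averaged at least 10 RPM. Of the 11564 genes that did, 82.5% also had their lowest RPM in the library named above. After each library was centred on the median gene the share was 37.4%.

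H9 is an established line of human embryonic stem cells, labelled here as primed. Nuclei were extracted, fixed with formaldehyde and bound to beads, and polyadenylated RNA was copied by reverse transcription (RT) with a barcoded primer. RT was performed either after (Post) or before (Pre) tagmentation, the step in which Tn5 carried by antibodies cuts chromatin and adds adapters. In each order 1 library was made with H3K27me3 and H3K27ac profiled in the same sample (RNA and DNA) and 1 with transcripts only (RNA only), which compares the orders of the steps. How far the RNA only libraries were taken through tagmentation, and whether all libraries came from 1 culture, is not given in the sources used here. Each condition is 1 library, so no difference has a replicate check and no p-value is given. In bulk libraries, fewer cells of a type and less RNA per cell cannot be told apart.

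A clone-named gene carries the accession of the sequenced genomic clone on which it was annotated, followed by a running number, because it has no approved symbol. Most such genes are long noncoding RNAs or pseudogenes, and the name itself tells nothing of function. Long noncoding RNAs are often retained in the nucleus, which is the compartment sampled here. The 4 names matched 0 gene names in GENCODE release 44 and 0 RefSeq symbols or synonyms, and the same held for all 11165 clone-named genes. No place, length, strand, biotype or sequence is therefore given, and levels are compared between libraries and not between genes.

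Total counts were 6368721 to 10089552 per library, the smallest being Post, RNA only, where 1 count equals 0.157 RPM. Intervals of levels and ratios are exact 95% intervals that cover counting error only. All 12 markers of primed pluripotent cells, among them POU5F1, SOX2 and LIN28A, were above 10 RPM in every library. Of 10 markers of other cell types, at most COL1A1 and COL1A2 were above 10 RPM, and SOX17, TBXT and SOX1 did not exceed 0.320 RPM. The summed level of those 10 was 33.8 RPM in Post, RNA only and 43.9 RPM in Pre, RNA only, and 46.6 RPM in Post, RNA and DNA and 49.2 RPM in Pre, RNA and DNA, and its part in the results was not tested. The 6 genes of clones FP236383 and FP671120 together took 34.8% of the counts in Post, RNA only, against 12.3% in Pre, RNA only. With DNA profiling they took 15.8% in Post, against 10.7% in Pre. RPM values add up to a fixed sum, and of the 11564 genes that averaged at least 10 RPM, 82.5% had their lowest RPM in Post, RNA only. After each library was centred on the median gene the share was 37.4%, and the 4 genes were lowest there on both scales. With the 6 genes left out of the totals and nothing else subtracted, the log2 ratio of Post over Pre, RNA only was −1.03 for AC092275.1, −1.03 for AL353593.2, −0.76 for AC240565.1 and −0.69 for AC069287.3. Ratios are therefore also given as relative log2 ratios, the difference of log2(RPM + 1) minus its median over these 11564 genes. For Post over Pre that median was −0.09 with DNA profiling and −0.44 without it. For RNA and DNA over RNA only it was 0.38 in the Post libraries and 0.03 in the Pre libraries.

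AC069287.3 had 17.4 RPM (14.3 to 21.0) in Post, RNA only and 38.5 RPM (34.6 to 42.7) in Pre, RNA only. The libraries with DNA profiling gave 40.5 RPM (36.7 to 44.7) in Post and 28.9 RPM (25.5 to 32.6) in Pre. Post, RNA only was the lowest library and Pre, RNA and DNA the second lowest, and only the intervals of the highest pair of libraries overlapped.

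AC092275.1 had 15.2 RPM (12.4 to 18.6) in Post, RNA only and 42.9 RPM (38.8 to 47.3) in Pre, RNA only. The libraries with DNA profiling gave 46.5 RPM (42.4 to 50.9) in Post and 34.9 RPM (31.2 to 39.0) in Pre. The libraries took the same order as for AC069287.3. The interval of Pre, RNA only overlapped those of both RNA and DNA libraries, and the interval of Post, RNA only overlapped none.

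AC240565.1 had 7.22 RPM (5.29 to 9.63) in Post, RNA only and 17.1 RPM (14.5 to 19.9) in Pre, RNA only. The libraries with DNA profiling gave 19.3 RPM (16.7 to 22.2) in Post and 12.6 RPM (10.4 to 15.2) in Pre. Again Post, RNA and DNA was highest and Post, RNA only lowest, with the same overlaps as for AC092275.1.

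AL353593.2 had 5.18 RPM (3.57 to 7.28) in Post, RNA only, from 33 counts, and 15.1 RPM (12.8 to 17.8) in Pre, RNA only, from 142 counts. The libraries with DNA profiling gave 12.5 RPM (10.4 to 14.9) in Post and 11.6 RPM (9.48 to 14.1) in Pre. It was the one gene of the 4 that was highest in Pre, RNA only, and the intervals of its 3 higher libraries all overlapped each other.

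**Figure D1:**
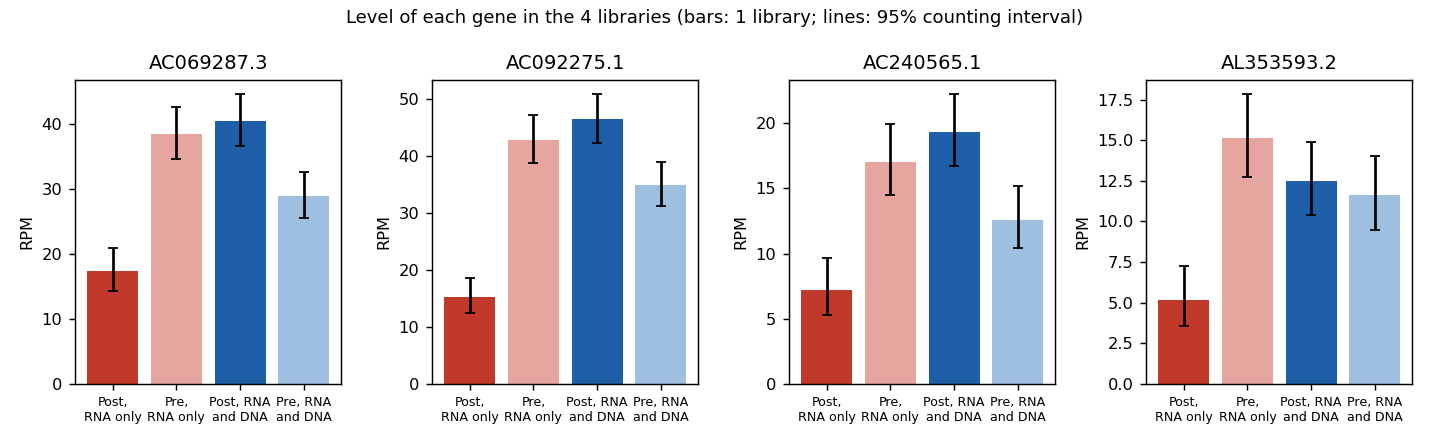
Level in RPM (vertical axes, each from 0) of the 4 genes in the 4 libraries, with 1 library per bar and 95% counting intervals as lines. In every panel the bar of Post, RNA only, at 5.18 to 17.4 RPM, is the lowest, and its interval overlaps no other. Of the 11564 genes averaging at least 10 RPM, 82.5% also had their lowest RPM in that library. The overlap of intervals was not counted over all genes, so nothing is read from it.

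In the RNA only pair, the level of AC069287.3 in the Post library was 0.453 times that in the Pre library (interval 0.363 to 0.562). The ratio was 0.355 for AC092275.1 (0.282 to 0.445), 0.423 for AC240565.1 (0.298 to 0.591) and 0.342 for AL353593.2 (0.227 to 0.503). In plain RPM all 4 were thus at least 2-fold lower in Post, RNA only, where 2.53% of the 11564 genes were. This comparison entered the choice of the genes, so nothing is read from their count. On the relative scale the values were closer to 0. The relative log2 ratios were −0.996 for AC092275.1, −0.95 for AL353593.2, −0.70 for AC240565.1 and −0.66 for AC069287.3, with a median of −0.82. AC092275.1 lay just above −1, and 0 of the 4 passed a 2-fold decrease on this scale, where 0.0519% of all genes did. The scaling also turned the balance of genes past 2-fold, with 154 higher and 6 lower relative to the median and 80 higher and 293 lower in plain RPM.

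Counted from the lowest relative ratio among the 11564 genes, AC092275.1 ranked 7 and AL353593.2 ranked 11, while AC240565.1 ranked 88 and AC069287.3 ranked 119. Among the 1070 clone-named genes they ranked 1, 3, 25 and 32 in the same order. Next to AC092275.1 and AL353593.2 lay AL445248.1, at −0.97, between them, and AC078883.2, at −0.94, just above AL353593.2. AC240565.1 lay between AL356805.1 and AC006001.2, both at −0.70, and AC069287.3 between AC004596.1, at −0.67, and AC068587.4, at −0.66. All 6 of these neighbours had a lower RPM in Post than in Pre with DNA profiling too, unlike the 4 genes. The choice of the genes favours this contrast, so nothing is read from it. AL445248.1 had 11.1 RPM in Post, RNA only and 31.2 RPM in Pre, RNA only, but 23.2 RPM in Post, RNA and DNA and 34.7 RPM in Pre, RNA and DNA. Of the 1070 clone-named genes 532 lay below 0, and their own median was 0.00. As a class, 153 genes with LINC numbers had a median of 0.02 and 286 antisense genes one of 0.00. Of 8 listed long noncoding RNAs, 7 averaged at least 10 RPM, with a median of 0.09. Of these 7, 2 lay below 0, MALAT1 at −0.20 and NEAT1, a structural RNA of paraspeckles, at −0.39.

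With DNA profiling the direction was the opposite one. Post over Pre was 1.40 for AC069287.3 (interval 1.20 to 1.65), 1.33 for AC092275.1 (1.15 to 1.54) and 1.53 for AC240565.1 (1.21 to 1.95). For AL353593.2 it was 1.08 with an interval of 0.823 to 1.41, so that a difference in either direction lay within counting error. The relative log2 ratios were 0.57 for AC069287.3, 0.50 for AC092275.1, 0.67 for AC240565.1 and 0.19 for AL353593.2. Of the 4, 0 were 2-fold apart in either direction, against 0.251% of all genes, with 18 higher and 11 lower relative to the median and 12 higher and 23 lower in plain RPM.

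**Figure D2:**
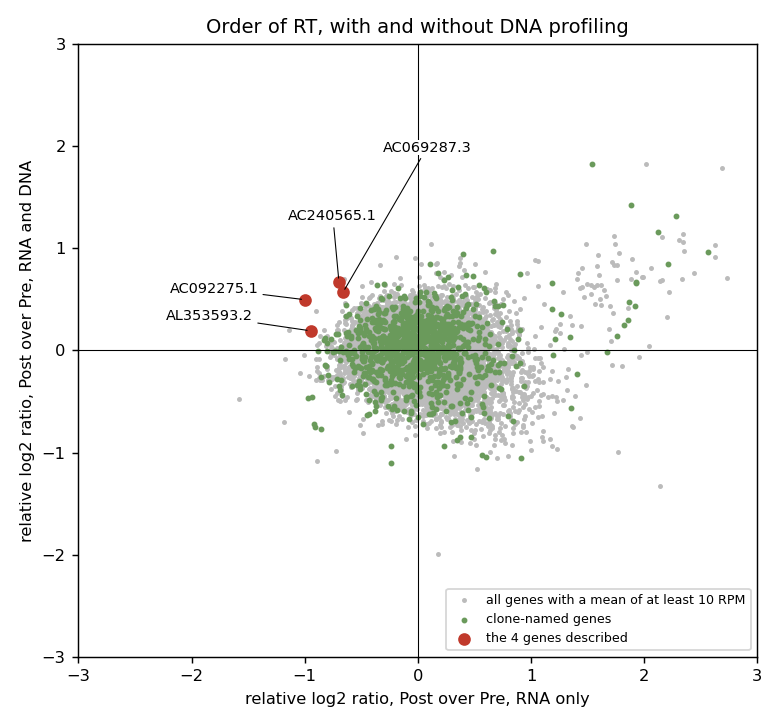
Relative log2 ratio of Post over Pre without DNA profiling (horizontal axis) and with it (vertical axis) for the 11564 genes, clone-named genes in green and the 4 genes in red. The 4 genes lie at the upper left edge, between −0.996 and −0.66 on the horizontal axis and between 0.19 and 0.67 on the vertical axis, and 4 genes fall outside the axes.

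The 2 pairs share no library. A relative ratio above 0 with DNA profiling and below 0 without it was found for 25.6% of all genes and 26.6% of clone-named genes, and for all 4 genes by their choice. On the log2 scale, the ratio of the RNA and DNA pair exceeded that of the RNA only pair by 1.49 for AC092275.1, 1.37 for AC240565.1, 1.23 for AC069287.3 and 1.14 for AL353593.2. Standard errors from counting alone, worked out for plain counts without the added 1 RPM, were 0.19, 0.30, 0.19 and 0.34 in the same order. The differences hold ranks 1, 2, 6 and 9 of 11564 genes, and 0.182% of all genes had a difference of at least 1. The choice favours large differences, so nothing is read from their size or rank. Just inside the choice stood AL353593.2 at 1.14, and just outside it the clone-named gene AP003025.2 at 1.07.

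Within the Post libraries, RNA and DNA over RNA only was 3.05 for AC092275.1 (interval 2.45 to 3.84), 2.68 for AC240565.1 (1.93 to 3.77), 2.41 for AL353593.2 (1.63 to 3.65) and 2.33 for AC069287.3 (1.88 to 2.90). All 4 were at least 2-fold higher with DNA profiling in plain RPM, where 0.899% of all genes were. On the relative scale AC092275.1 alone of the 4, with 1.17, was past 2-fold, as were 0.0432% of all genes. The others had 0.93 for AC240565.1, 0.79 for AC069287.3 and 0.75 for AL353593.2. AC092275.1 had the second highest relative ratio of the 11564 genes. Over all genes 5 were higher and 268 lower relative to the median, and 104 higher and 89 lower in plain RPM. This comparison and the one of Post over Pre, RNA only share the library Post, RNA only. The difference used for the choice also takes in this comparison, so nothing is read from the count or the rank.

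Within the Pre libraries the ratio lay on the other side of 1 for all 4 genes. RNA and DNA over RNA only was 0.739 for AC240565.1 (interval 0.576 to 0.946), 0.751 for AC069287.3 (0.638 to 0.883), 0.767 for AL353593.2 (0.589 to 0.994) and 0.815 for AC092275.1 (0.701 to 0.947). Relative log2 ratios lay between −0.43 and −0.31, within the lowest 2.09% of genes for AC092275.1 and the lowest 0.830% for the others. None of the 4 was 2-fold apart, against 0.0173% of all genes. The spread of ratios in this comparison was narrow, with quartiles of all genes at −0.09 and 0.09. This comparison also enters the difference used for the choice, which favours low values here. Nothing is therefore read from the positions of the 4 genes.

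Another 5 genes in the tables are named after the same clones, for 3 of the 4 clones, and AC092275 had no other gene. AL353593.1 was the only one of the 5 that averaged at least 10 RPM, so it was among the clone-named genes from which the 4 were chosen. That it differs from AL353593.2 in these ratios follows from the choice and is given as a description. AL353593.1 had 24.2 RPM in Post, RNA only and 31.1 RPM in Pre, RNA only, a ratio of 0.777 (0.635 to 0.947). Its relative log2 ratio was 0.09 there and 0.44 in the RNA and DNA pair, with 38.7 RPM in Post and 30.1 RPM in Pre. Within the Post libraries, RNA and DNA over RNA only was 1.60 (1.32 to 1.94), an interval that starts just above the all-gene median of 1.299. That median was taken with 1 RPM added and depends on the filter. On the log2 scale it was 0.38 at a mean of at least 10 RPM and 0.44 at 50 RPM. The ratio of AL353593.1 had the direction of the 4 genes, with a relative log2 ratio of 0.28.

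AC240565.2 had 3.30 RPM in Post, RNA only and 4.90 RPM in Pre, RNA only, with a ratio of 0.672 (0.381 to 1.15). The libraries with DNA profiling gave 8.33 RPM in Post and 4.02 RPM in Pre, a ratio of 2.07 (1.39 to 3.15). The direction in both pairs was the one of AC240565.1 in plain RPM. Its relative log2 ratio was −0.02 without DNA profiling and 0.99 with it. Within the Post libraries, RNA and DNA over RNA only was 2.52 (1.55 to 4.29), with a relative log2 ratio of 0.74, close to the 0.75 of AL353593.2. AC069287.2 had 3.61 RPM in Post, RNA only and 2.99 RPM in Pre, RNA only, and the interval of its ratio was 0.666 to 2.18. Its Post over Pre ratio with DNA profiling was 2.15 (1.06 to 4.62), and RNA and DNA over RNA only in the Pre libraries was 0.449 (0.208 to 0.911), both in the direction of AC069287.3. Both ratios rest on the same 12 counts in Pre, RNA and DNA, so they are not independent. Within the Post libraries, RNA and DNA over RNA only was 0.796 for AC069287.2 (0.445 to 1.44), on the other side of 1 from AC069287.3. The Post over Pre ratios without DNA profiling of AC069287.1 (6 and 12 counts in Post, RNA only and Pre, RNA only) and AL353593.3 (2 and 12 counts) had intervals of 0.227 to 2.12 and 0.0267 to 1.10. For these 2 genes a difference in that comparison was not detectable at this depth.

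**Figure D3:**
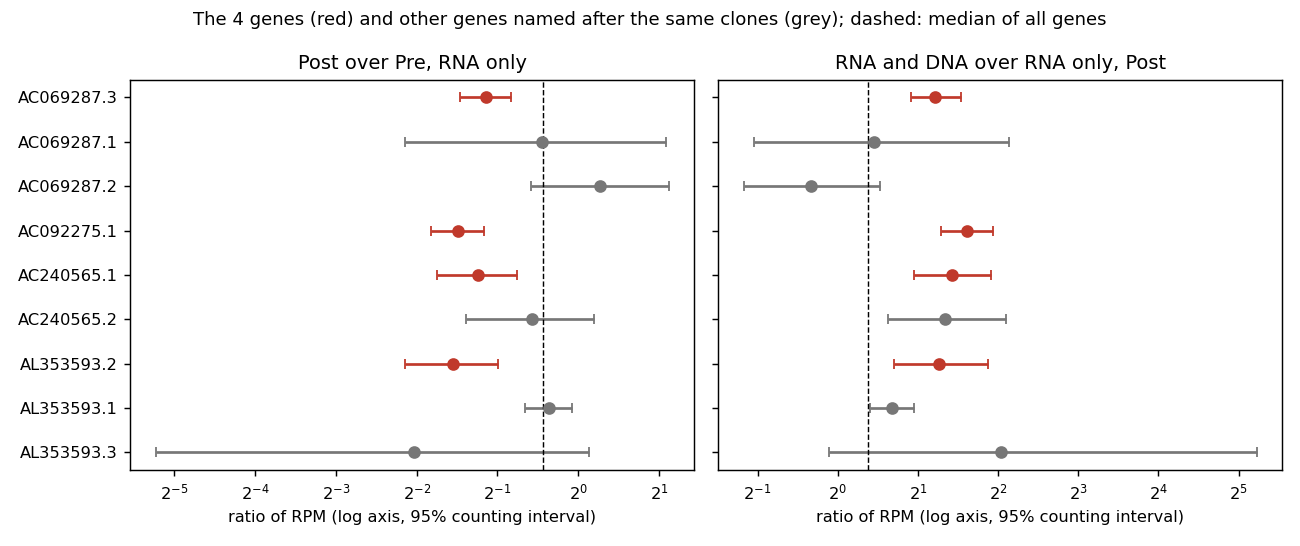
Ratio of RPM on a log axis with 95% counting intervals for the 4 genes (red) and the 5 other genes of their clones (grey), for Post over Pre in the RNA only libraries and RNA and DNA over RNA only in the Post libraries. The dashed line is the median of all genes, at 0.738 on the left and 1.299 on the right. The line was taken with 1 RPM added, over genes averaging at least 10 RPM. The interval of AL353593.1 includes it on the left, at 0.635 to 0.947, while the red points lie at 0.342 to 0.453. On the right the intervals of AL353593.1, 1.32 to 1.94, and AC240565.2, 1.55 to 4.29, lie above the line, as do those of the red points, which start at 1.63 or higher.

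The genes most like the 4 were sought by the root mean square distance between log2(RPM + 1) values of the 4 libraries, each gene centred on its own mean, among 11560 other genes. Within the group, AC240565.1 was the nearest of all genes to AC069287.3, at a distance of 0.05, and the other pairs lay between 0.15 and 0.19. Among the genes nearest to AC069287.3, AL353593.2 ranked 272 and AC092275.1 ranked 314, and AL353593.2 ranked 201 among those nearest to AC240565.1. For AC092275.1 the ranks were 11 for AC240565.1 and 16 for AL353593.2. The choice of the 4 genes used these same library values and favours alike profiles, so nothing is read from these distances and ranks. Nearest to the mean profile of the 4 was SPDYE3, at 0.07, a member of the Speedy family of activators of cyclin-dependent kinases. It had 13.3 RPM in Post, RNA only and 30.0 RPM in Pre, RNA only, and 30.1 RPM in Post, RNA and DNA and 24.4 RPM in Pre, RNA and DNA. Next came AP003025.2, at 0.08, and GSE1, at 0.09, which encodes a coiled-coil protein. GSE1 had 189.7 RPM in Post, RNA only and 416 RPM in Pre, RNA only, and 417 RPM in Post, RNA and DNA and 368 RPM in Pre, RNA and DNA.

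Of the single nearest genes outside the group, DDX11-AS1, an antisense gene, lay 0.06 from AC069287.3. It had 7.54 RPM in Post, RNA only and 15.2 RPM in Pre, RNA only, and 16.8 RPM in Post, RNA and DNA and 12.2 RPM in Pre, RNA and DNA. LINC01001, a noncoding gene, lay 0.06 from AC240565.1. SPDYE2, of the same family as SPDYE3, lay 0.11 from AC092275.1. LRP4, a receptor of the low-density lipoprotein receptor family that binds agrin, lay 0.05 from AL353593.2, with 16.0 RPM in Post, RNA only and 41.8 RPM in Pre, RNA only. The SPDYE genes have near-identical copies, so their counts are uncertain, and whether the 4 clone-named genes have such copies was not tested. The strand setting of the counting is not given in the sources used here, so reads of an antisense gene and its partner cannot be told apart.

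The lower level in Post, RNA only held in direction under all 9 settings compared, and its size depended on the scale. The settings reuse the same libraries for genes chosen on these values, so the kept direction is no independent check. AC092275.1 and AL353593.2 lay past a 2-fold decrease with totals without the 20 most abundant genes, at −1.03 for both, and short of it with TMM library sizes, at −0.99 and −0.97. AC240565.1 and AC069287.3 were short of it in every setting other than plain RPM. Plain RPM, with 1 RPM added before the log and nothing subtracted, was the one setting of the 9 with all 4 past 2-fold. It gave −1.43 for AC092275.1, −1.38 for AL353593.2, −1.14 for AC240565.1 and −1.10 for AC069287.3.

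**Figure D4:**
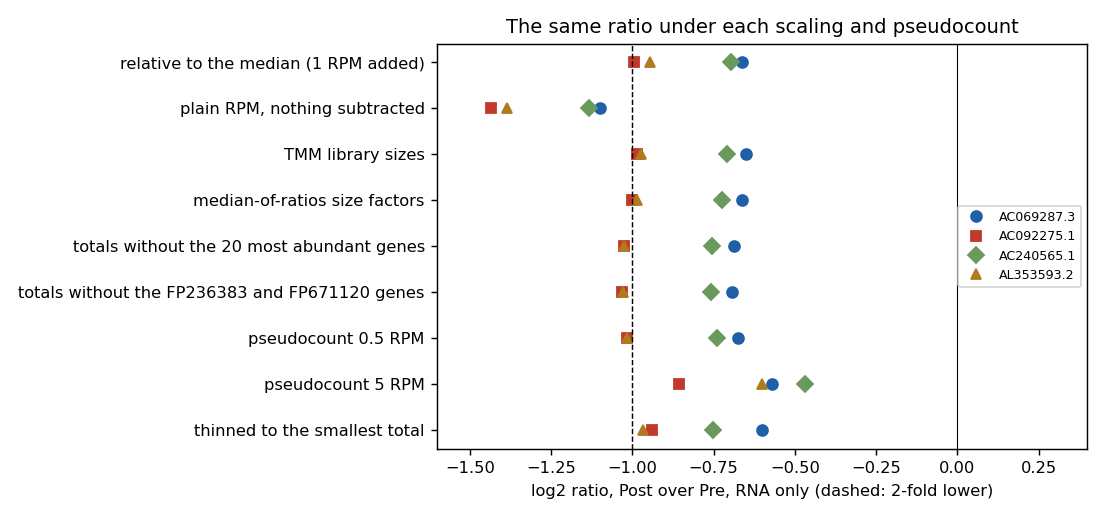
Log2 ratio of Post over Pre, RNA only (horizontal axis) of the 4 genes under each scaling, pseudocount and depth (rows), with a dashed line at a 2-fold decrease. All points lie below 0, and in plain RPM the 4 lie between −1.43 and −1.10.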

How the data were processed

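RNA of 4 H9 libraries was analysed. The authors deposited raw counts per gene symbol. Per their processing notes, STAR 2.7.11b, Bowtie2 2.5.3, Bowtie 1.3.1, Trim Galore 0.6.10 and SAMtools were used with GRCh38. The methods, written for single cells, keep uniquely mapped reads, which drops reads shared by identical copies, and remove duplicates by position and molecular identifier. Whether each step applied here is not stated. The annotation and strand setting of the counting are not given in the sources used here. Each table holds 1 column for its library, identified by RT barcode through the labels and the legend, and 60 further barcode columns were not used.

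Counts were divided by library totals to give RPM. Ratios of log2(RPM + 1) were centred on the median of genes averaging at least 10 RPM, and genes at least 2-fold apart were counted. With 1 library per condition the difference between the pairs has no residual degrees of freedom. A model with the order of RT and DNA profiling as separate terms would leave 1 and was not run. Clone-named genes have 1 or 2 capitals, 5 or 6 digits, a point and a number. Named were the 4 genes, the genes next to them in rank, the genes of their clones and those of most similar profile. Other genes in the closing section were chosen after their values were seen. The members and lists were chosen with earlier results of these data known. The size rule, the centring and the ratio intervals were tested on simulated counts for Post over Pre, RNA only. The changed genes averaged at least 50 RPM, above the level of the 4 genes. The difference between the pairs was not simulated. Alternatives were TMM (edgeR 4.0.16) and median-of-ratios (DESeq2 1.42.0) scaling, totals without abundant genes, other pseudocounts and filters, and thinning. The software was R 4.3.3 and Python 3.11.15 with scipy 1.17.1, pandas 2.3.3, numpy 2.4.6 and matplotlib 3.10.9.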

Additional observations from a re-analysis of the deposited data

Results flagged for a closer look

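For all 4 genes the relative ratio of Post over Pre had opposite signs in the pairs, above 0 with DNA profiling and below 0 without it. On the log2 scale the ratio with DNA profiling was higher by 1.23 for AC069287.3, 1.49 for AC092275.1, 1.37 for AC240565.1 and 1.14 for AL353593.2. The genes were chosen for this difference, and with 1 library per condition it was not tested.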

How the results depend on the processing

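No paired analysis was possible because the conditions share no second replicate number in the labels, and with 1 library in each no replicate could be left out. The Post and Pre libraries with and without DNA profiling are described side by side. The 16 log2 ratios of the 4 genes (4 genes in 4 comparisons) were recomputed under 8 other scalings, pseudocounts and depths, and all 16 kept their sign throughout. The same libraries and chosen genes enter every setting, so the kept signs are no independent check. Of the 128 recomputed values 125 lay inside the counting interval of the ratio relative to the median. The 3 others were all in plain RPM, at −1.10 for AC069287.3 and −1.43 for AC092275.1 in Post over Pre, RNA only, and at 1.17 for AC069287.3 in RNA and DNA over RNA only, Post.

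Of the 4 genes, 0 were 2-fold lower in Post over Pre, RNA only, and this became 4 in plain RPM and 2 with totals without the 20 most abundant genes, totals without the FP236383 and FP671120 genes, a pseudocount of 0.5 RPM, a mean of at least 1 RPM, or no filter. The 1 gene 2-fold higher in RNA and DNA over RNA only, Post became 4 in plain RPM and 2 without a filter. At a mean of at least 50 RPM no gene of the 4 was left. The 4 genes were chosen on these values, so nothing is read from their counts. The counts of all genes that follow are out of 11564 genes unless the filter changed. They are out of 21700 at a mean of at least 1 RPM, 4227 at 50 RPM and 33634 without a filter. The number of all genes 2-fold lower in Post over Pre, RNA only was 6, against 293 in plain RPM, 10 with either reduced total or a pseudocount of 0.5 RPM, 3 with one of 5 RPM, 63 at a mean of at least 1 RPM, 1 at 50 RPM and 171 without a filter. The number 2-fold higher in RNA and DNA over RNA only, Post was 5, and in the same order of settings 104, 8, 1, 50, 0 and 102. Past 2-fold either way in Post over Pre, RNA and DNA were 29, against 11 with a pseudocount of 5 RPM, 140 at a mean of at least 1 RPM, 9 at 50 RPM and 162 without a filter. In RNA and DNA over RNA only, Pre there were 2, and 1, 23, 1 and 32 in that order. By definition the relative ratios move with the median subtracted, and plain RPM subtracts nothing. For Post over Pre, RNA only that median was −0.44 at a mean of at least 10 RPM. It was −0.36 at a mean of at least 1 RPM and −0.22 without a filter. Other causes of these shifts were not tested. Depth limits AL353593.2 most, with 33 counts in Post, RNA only.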

Other observations

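Among the 10 genes with the largest rise of the Post over Pre ratio in the RNA and DNA pair relative to the RNA only pair, 6 were not clone-named. They were LINC01001, PHF2, POLR2J2, SPON1-AS1, SPDYE2 and HIF1A-AS1, with differences of 1.36, 1.34, 1.28, 1.17, 1.14 and 1.12 on the log2 scale. PHF2, a member of a family of histone demethylases, had 8.16 RPM in Post, RNA only and 26.3 RPM in Pre, RNA only, and 25.1 RPM in Post, RNA and DNA and 23.2 RPM in Pre, RNA and DNA. POLR2J2, one of several near-identical genes for a subunit of RNA polymerase II, had 5.81 RPM in Post, RNA only and 16.2 RPM in Pre, RNA only, and 13.2 RPM in Post, RNA and DNA and 10.6 RPM in Pre, RNA and DNA. These genes were chosen after their values were seen.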
